A study of Danio rerio with 4 samples.

Results

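The cells described here are zebrafish cells in which transcripts of at least 3 of 6 genes, pou2f3 and calb2a among the 6, were detected together while endothelial transcripts were nearly absent. They were chosen by the presence of unique molecular identifiers (UMIs, each standing for 1 captured transcript). A cell was taken when it held a UMI of at least 3 of the 6 genes calb2a, gng13a, cldnh, pou2f3, bik and mmp30, and a UMI of at most 2 of the 8 endothelial genes cdh5, tie1, pecam1, egfl7, sox18, she, clec14a and ecscr. The rule was applied to the 5191 cells that passed the study's filter (more than 200 and fewer than 4500 detected genes, less than 5% mitochondrial UMIs), called kept cells below, out of 7677 called cells. It found 66 members, of which 4 came from WT replicate 1, 1 from WT replicate 2, 56 from flt1mut replicate 1 and 5 from flt1mut replicate 2.

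Droplet-based single cell RNA sequencing was carried out on 2 WT and 2 flt1mut libraries. All embryos were 3 days post fertilization and carried the endothelial reporter Tg(kdrl:EGFP)zf531Tg, as the labels name it; the study's methods list another allele designation for the reporter line. The mutants also carried the flt1ka604 allele, whose premature stop removes the soluble and the membrane-bound form of the Vegf receptor Flt1. Whole embryos were dissociated with enzymes, pooled for each library, and live GFP+ cells were collected by flow cytometry, so an epithelial cell reached the libraries only by passing a gate meant for endothelium. Nothing in the labels ties a library to an independent clutch, so the spread between libraries may be technical.

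Pou2f3 is a POU domain transcription factor that in mice is required for tuft cells and for the taste receptor cells that sense sweet, umami and bitter compounds. Such chemosensory epithelial cells signal through a G protein whose gamma subunit is Gng13, phospholipase C, the inositol trisphosphate receptor Itpr3 and the calcium-gated cation channel Trpm5, and they hold the actin-binding protein advillin. Calretinin, encoded by calb2a, is a calcium buffer found in many sensory cells and neurons. Claudins such as that encoded by cldnh seal the tight junctions between epithelial cells, Bik is a pro-apoptotic member of the BCL2 family in mammals, and mmp30 encodes a matrix metalloproteinase.

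The libraries differed in depth and in the background of the genes that chose the cells. Total UMIs ranged from 16828951 to 33837917 per library, and the median UMI count of kept cells ranged from 11165 to 16940. No member's barcode recurred in another library. In flt1mut replicate 1 a calb2a UMI was present in 37 of 292 endothelial cells (12.7%, exact 95% interval 9.08 to 17.0%) and in 9 of 98 erythrocytes (9.18%), whereas the endothelial share was 1.32% in WT replicate 1, 0.369% in WT replicate 2 and 0 of 276 cells in flt1mut replicate 2. The same library held gng13a in 10.6%, cldnh in 6.85% and pou2f3 in 5.82% of its endothelial cells. UMIs of these genes were thus present there in cells of other types. They were not only single UMIs, since 3 kept cells of that library with more than 2 endothelial genes held at least 10 calb2a UMIs. Counts of members that rest on single UMIs are read beside stricter counts below, but a limit of 2 UMIs does not exclude this background. Of the 66 members, 37 held at least 2 UMIs of at least 3 positive genes, and these were 1, 0, 33 and 3 cells in WT replicate 1, WT replicate 2, flt1mut replicate 1 and flt1mut replicate 2.

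The 6 positive genes chose the cells, so their values are a description. Pou2f3 (ENSDARG00000052387) was detected in 52 members, calb2a (ENSDARG00000041062) in 44, both in 33 and neither in 3, all 3 in flt1mut replicate 1. The claudin gene cldnh (ENSDARG00000069503) was detected in 53 members, bik (ENSDARG00000045549) in 47, gng13a (ENSDARG00000024740) in 45 and mmp30 (ENSDARG00000045887) in 19. Mmp30 was thus the least frequent of the 6, and 24 members held all of calb2a, gng13a, cldnh and pou2f3.

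The positive genes were not evenly spread over the libraries. Levels are given as CPM, the summed UMIs of a gene scaled to the summed UMIs of its cells. The summed level of pou2f3 in members was 62.4 in WT replicate 1, 651 in WT replicate 2, 450 in flt1mut replicate 1 and 441 in flt1mut replicate 2, against 0.16, 0.05, 5.07 and 1.43 CPM in all other kept cells. Calb2a stood at 62.4, 0, 1984 and 10.5 CPM in the same order, so nearly all calb2a came from flt1mut replicate 1. Gng13a reached 31.2, 186, 1058 and 650 CPM, and bik 93.6, 46.5, 331 and 535 CPM, with both genes present in all 4 libraries. In WT replicate 1 gng13a came from 2 UMIs of 1 cell that held 573 UMIs in all. Among the members that held a gene, the UMI count per cell had a median of 3.5 and a highest value of 228 for calb2a, of 4 and 35 for pou2f3, of 5 and 95 for gng13a, of 9 and 69 for cldnh, of 6 and 29 for bik and of 1 and 14 for mmp30.

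**Figure D1:**
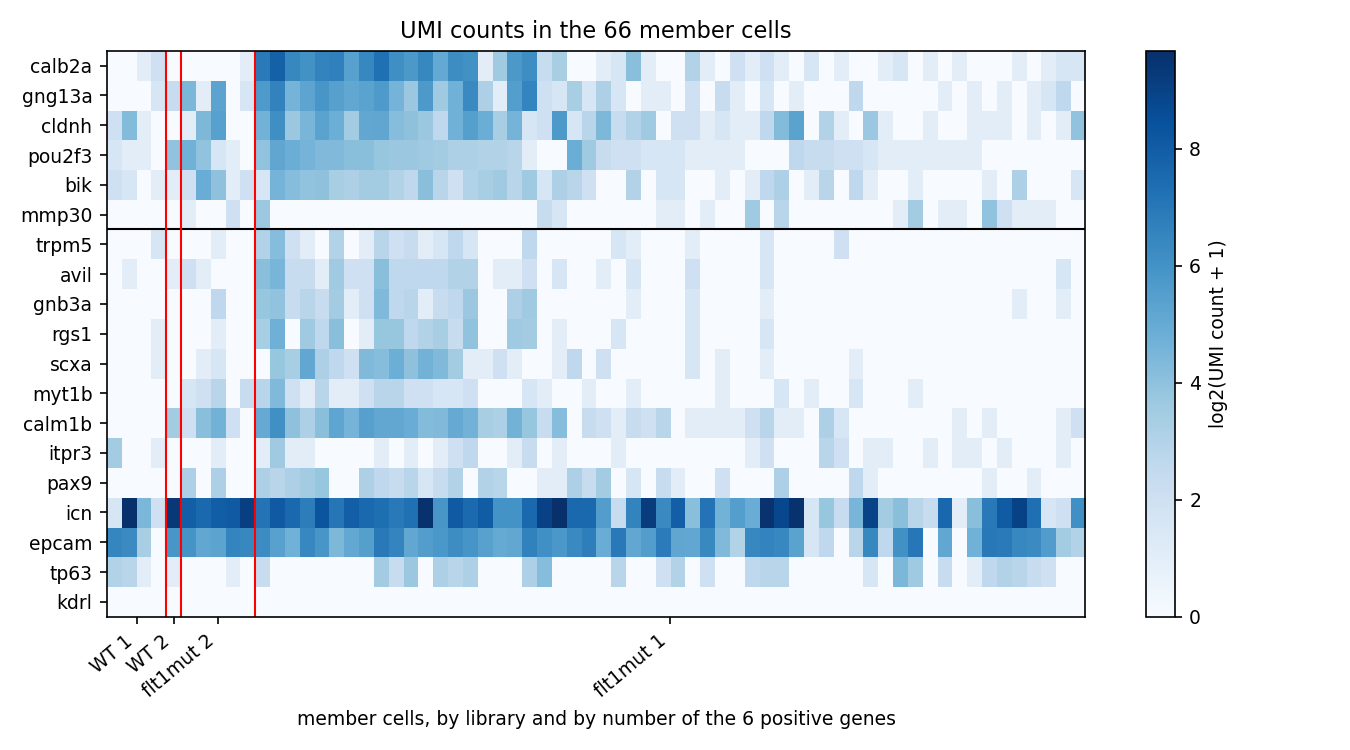
UMI counts in the 66 member cells (columns, grouped by library and ordered by their number of positive genes) for the 6 genes of the rule above the black line and 13 other genes below it, as log2(UMI count + 1). A block of flt1mut replicate 1 cells was high in calb2a, gng13a, pou2f3, trpm5, avil, gnb3a and calm1b at once, icn was present in all 66 members, and kdrl in none.

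Members just inside the threshold differed from those well inside it. Of the 66 members, 27 held exactly 3 positive genes, 17 held 4 and 22 held 5 or 6. Just outside, 113 kept cells held exactly 2 positive genes with at most 2 endothelial genes, 99 of them in flt1mut replicate 1. A further 10 kept cells held at least 3 positive genes but more than 2 endothelial genes. All 5 WT members held exactly 3 positive genes, as did 20 of 56 in flt1mut replicate 1 and 2 of 5 in flt1mut replicate 2. Of the members, 59 held no endothelial gene of the rule, 6 held 1 and 1 held 2.

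Chemosensory genes that the rule did not use followed the number of positive genes. Trpm5, the taste and tuft cell cation channel, was detected in 2 of 27 members with 3 positive genes (7.41%), 5 of 17 with 4 (29.4%) and 14 of 22 with 5 or 6 (63.6%), against 1 of 113 cells just outside the rule (0.885%). The share of cells with an avil UMI (advillin) was 11.1%, 29.4% and 90.9% in the same order, against 1.77% outside. Gnb3a, a G protein beta subunit gene whose mammalian counterpart Gnb3 works with Gng13, was detected in 7.41%, 23.5% and 77.3%, against 5.31%.

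Depth did not order these groups, whose median UMI counts were 12152, 15141, 14935 and 14163 from 2 to 5 or 6 positive genes. In erythrocytes, which should lack these genes, trpm5 was detected in 0 of 184 cells (which allows a share of up to 1.63%), avil in 0.543% and gnb3a in 1.63%, at a median of 19111 UMIs against 14511 in members. After thinning of each cell to 1000 UMIs, the trpm5 share was 0% of members with 3 positive genes, 0% with 4 and 27.3% with 5 or 6. Thinned avil stood at 0%, 5.88% and 27.3%, and thinned gnb3a at 0%, 0% and 31.8%, so at equal depth these genes were seen mainly in the members with 5 or 6 positive genes.

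These shares came almost wholly from 1 library, since 99 of the 113 cells just outside, 20 of 27 members with 3 positive genes, 15 of 17 with 4 and 21 of 22 with 5 or 6 were from flt1mut replicate 1. Within flt1mut replicate 1 trpm5 was detected in 1.01%, 5%, 26.7% and 66.7% of these cells and avil in 2.02%, 5%, 26.7% and 90.5%. The background in that library was 6 of 292 endothelial cells (2.05%) and 0 of 98 erythrocytes for trpm5, 1.37% and 1.02% for avil, and 3.08% and 3.06% for gnb3a. In the other 3 libraries together, the 2 members with 4 positive genes and the 1 with 5 or 6 were too few to give an order.

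At least 1 of trpm5, avil and gnb3a was present in 33 of 66 members and all 3 in 17. The 33 cells were 2, 1, 27 and 3 members of WT replicate 1, WT replicate 2, flt1mut replicate 1 and flt1mut replicate 2. By number of positive genes they were 6 of 27, 7 of 17 and 20 of 22. The epithelial adhesion gene epcam was frequent on both sides of the threshold, with a UMI in 98 of 113 cells just outside and in 23 of 27, 17 of 17 and 22 of 22 members. After thinning to 1000 UMIs its shares were 70.6%, 76.9%, 100% and 95.5% in the same order, and its pooled levels were 2859, 2988, 4706 and 3907 CPM, so its level and its thinned share were also larger with 4 or more positive genes. Tp63, the transcription factor gene of basal epidermis, was detected in 55.6%, 41.2% and 40.9% of members and in 49.6% of the cells just outside.

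**Figure D2:**
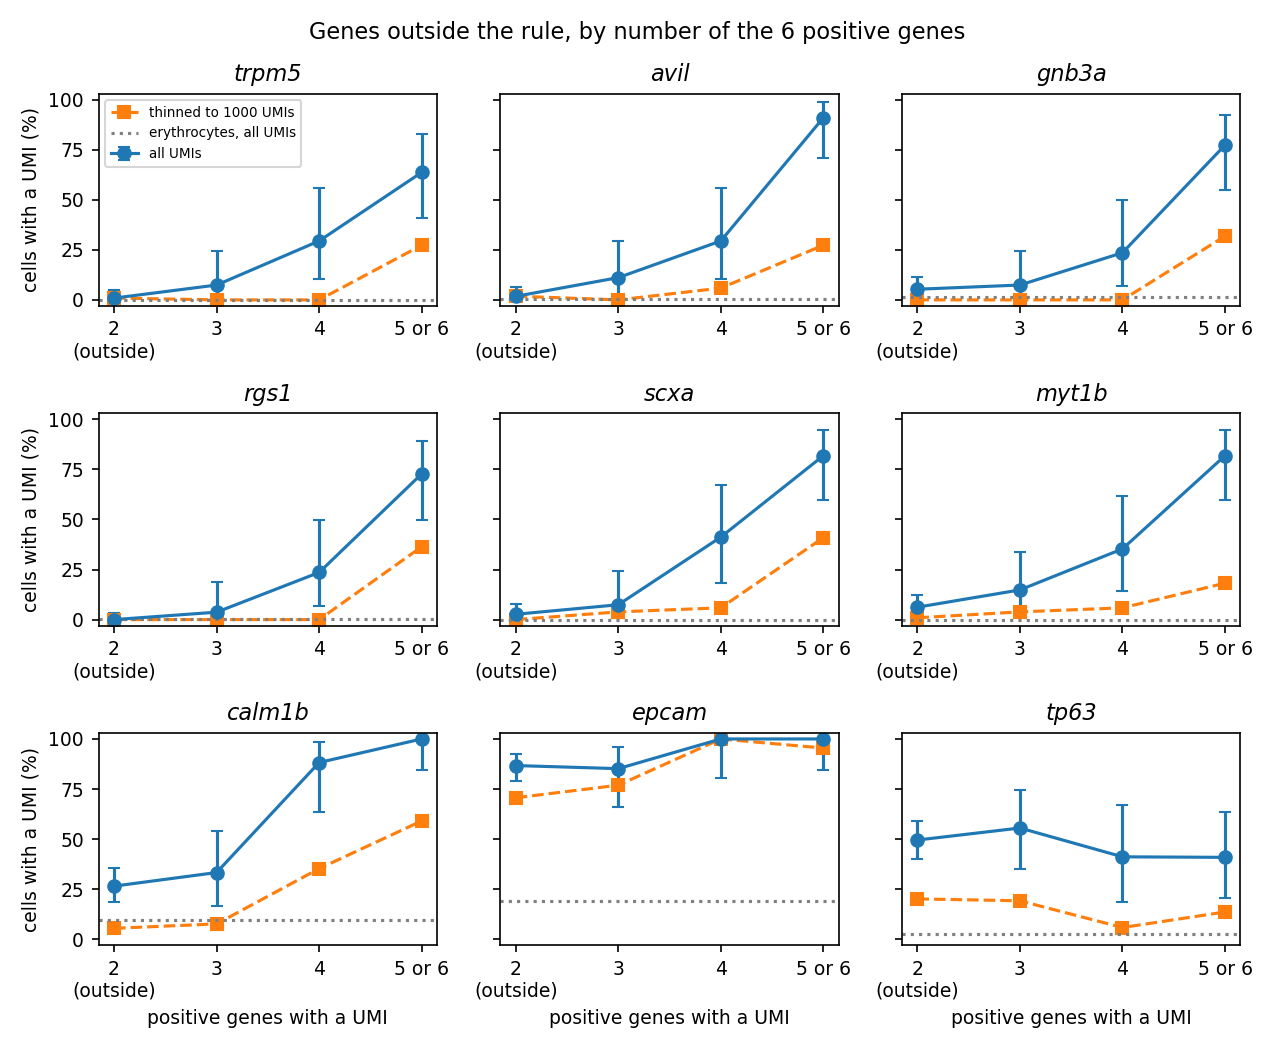
Percent of cells with a UMI of 9 genes outside the rule, against the number of the 6 positive genes in the cell (2, just outside the rule, 113 cells; 3, 27 cells; 4, 17 cells; 5 or 6, 22 cells). Blue points show all UMIs with exact 95% binomial intervals, orange squares the cells thinned to 1000 UMIs and grey dotted lines the share in erythrocytes. Trpm5 went from 0.885% to 63.6% and avil from 1.77% to 90.9%, while at full depth epcam stayed above 80% and tp63 between 40.9% and 55.6%. Of the cells with 5 or 6 positive genes, 21 of 22 came from flt1mut replicate 1.

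A calb2a-rich set of cells carried most of these transcripts. The set was picked after its values were seen, at 10 or more calb2a UMIs, and no test was run on it. It held 19 members with 11 to 228 calb2a UMIs, all from flt1mut replicate 1, and the next member below held 9. Avil was detected in 19 of these 19 cells and in 9 of the other 47 members, gnb3a in 18 and 5, trpm5 in 15 and 6, rgs1 in 15 and 6, and myt1b in 17 and 11. Pou2f3, cldnh and bik were each detected in all 19, and mmp30 in 1 of 19 against 18 of the other 47. Those genes belong to the rule that chose the cells. A cell that held calb2a, pou2f3, cldnh and bik did not need mmp30 to be taken, whereas a cell without most of them did. The counts of the rule's genes are therefore a description and not a separate difference between the calb2a-rich cells and the other members. The median UMI counts were 13934 and 14961, so the calb2a-rich cells were not deeper. Tp63 was detected in 8 of the 19 and in 23 of the other 47.

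Whether genes outside the rule separated the members from the other kept cells was asked by summing UMIs per library over both kinds of cell and testing the sums with edgeR's quasi-likelihood test, with library as a block. Only the 2 flt1mut libraries held the 5 members that the test required, so the WT members did not enter this fit. The cells had been chosen on 14 genes, which were left out of the test, and genes that accompany those 14 were bound to differ, so the adjusted p-values describe these sums and do not stand as proof of a separate cell type. Of 13503 genes tested, 460 were higher in members (3.41%) and 650 were lower (4.81%) at an adjusted p under 0.05. The median log2 fold change over all tested genes was -0.29. With all 4 libraries 1449 genes passed, and without flt1mut replicate 1, over the other 3 libraries, 350 passed. DESeq2 passed 361 genes in the same 2 libraries.

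Since most of the other kept cells were not epithelial, the members were also set against the 1279 other kept cells with an epcam UMI and at most 2 endothelial genes, a comparison added after the data had been seen. This set was not purely epithelial. Erythrocyte genes summed in it to 20457, 115, 23576 and 15797 CPM in WT replicate 1, WT replicate 2, flt1mut replicate 1 and flt1mut replicate 2. After thinning to 1000 UMIs, 60.7% of its cells kept an epcam UMI. All 8 erythrocyte genes and 6 of 8 leukocyte genes tested were lower in members than in this set. A gene higher in members was thus not shown to differ from other epithelial cells. Here 147 of 9197 tested genes were higher in members (1.6%) and 183 lower (1.99%), and 298 genes passed in both comparisons in the same direction. The median log2 fold change over all genes tested was -0.11.

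The rule for naming genes, the 30 largest increases among 299 genes that passed, were detected in at least 25% of members and were higher in both flt1mut libraries, gave the list described next. All 30 were also higher against the other epcam-positive cells at an adjusted p under 0.05 in edgeR, and all 30 passed in DESeq2 against all other kept cells, but they were picked as the largest from these same sums, so neither count is independent support. Over 4 libraries 24 of the 30 could be tested and all 24 passed. Without flt1mut replicate 1, 20 could be tested and 18 passed. The exceptions were scxa, at a log2 fold change of 3.00 (adjusted p = 0.249), and gnb3a, at 2.07 (adjusted p = 0.473). A UMI was present in WT members for 24 of the 30.

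The largest increase belonged to zgc:171929, which is not characterized in the names used here. It stood at 0, 651, 81.8 and 105 CPM in members of WT replicate 1, WT replicate 2, flt1mut replicate 1 and flt1mut replicate 2, against 0.16, 0, 0.51 and 0.11 CPM in the other kept cells. It was absent from the 4 members of WT replicate 1, and members exceeded the other cells in the other 3 libraries. Its log2 fold change was 7.70 ± 0.74 (SE, adjusted p = 1.33e-22).

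The 30 held trpm5, rgs1, gnb3a and calm1b. Trpm5 stood at 31.2, 0, 93.3 and 10.5 CPM in members against 0.08, 0.05, 0.95 and 0.05 CPM in other kept cells, with a log2 fold change of 6.41 ± 0.81 (adjusted p = 7.73e-13). In the 2 flt1mut libraries the members held 74 trpm5 UMIs and the other epcam-positive cells 1, a ratio of levels of 1201 whose exact counting interval of 209 to 48060 is wide. That interval takes UMIs as independent and leaves out the spread between cells and libraries, and 73 of the 74 UMIs were from flt1mut replicate 1. Members lay above the other cells in all libraries but WT replicate 2, whose single member held no trpm5, and in WT replicate 1 the value came from 2 UMIs of 1 cell. That cell held 573 UMIs in all and no epcam UMI, and it also supplied the rgs1 and scxa UMIs of WT replicate 1 members. Rgs1, which encodes a regulator that shortens G protein signals, stood at 15.6, 0, 206 and 10.5 CPM against 0.40, 0, 1.91 and 0 (log2 fold change 6.63 ± 0.73, adjusted p = 5.61e-17). In flt1mut replicate 2 the rgs1 and trpm5 values each came from 1 cell.

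Gnb3a stood at 0, 0, 169 and 52.4 CPM in members against 4.58, 0.95, 4.74 and 4.09 in other kept cells (log2 fold change 4.38 ± 0.59, adjusted p = 1.47e-11). None of the 5 WT members held it, and 22 of its 23 positive members were from flt1mut replicate 1. Calm1b, 1 of several zebrafish genes for the calcium sensor calmodulin, had the highest level of the 30 in the flt1mut members, at 0, 465, 707 and 483 CPM against 35.8, 26.6, 37.8 and 30.4 (3.79 ± 0.30, adjusted p = 8.50e-33). The 3 libraries with calm1b in members were all above their other cells, but calmodulin genes are near-identical copies whose reads may be split unevenly by counting.

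The 30 also held avil, baiap2l1b and tmem30b. Avil stood at 15.6, 46.5, 167 and 42 CPM in members against 0.32, 0.40, 1.51 and 0.69 in other kept cells, so it was higher in members of all 4 libraries, on 1 UMI in each WT library (6.26 ± 0.67, adjusted p = 4.12e-18). Without flt1mut replicate 1 its log2 fold change was 5.40 (adjusted p = 0.000534). Baiap2l1b, whose mammalian counterpart links membranes to actin, had a log2 fold change of 3.74 and was detected in 28 members. Tmem30b, a subunit gene of phospholipid flippases, had a log2 fold change of 3.73 and was the most widely detected of the 30, in 56 of 66 members and in members of all 4 libraries.

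Transcriptional regulators were represented by scxa, myt1b, pax9, grhl2b and cited1. Scxa, a scleraxis gene known from tendon, stood at 15.6, 0, 285 and 31.5 CPM in members against 2.73, 0.55, 1.80 and 1.49 in other kept cells (6.18 ± 0.60, adjusted p = 1.09e-21). Its level in flt1mut replicate 1 was far above that in the other 3 libraries. Myt1b, a zinc finger gene of neural differentiation, was absent from WT members and stood at 98.4 and 157 CPM in those of flt1mut replicate 1 and 2, against 2.61 and 3.02 CPM (5.11 ± 0.57, adjusted p = 7.68e-17).

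Pax9, a paired box gene of pharyngeal endoderm, was also absent from WT members and stood at 184 and 168 CPM in the flt1mut members against 9.22 and 2.65 CPM (4.66 ± 0.49, adjusted p = 1.43e-18). Its level was thus similar in both flt1mut libraries. Grhl2b, a grainyhead-like epithelial regulator, had a log2 fold change of 3.93 and 25 positive members. Cited1, a coactivator gene, had a log2 fold change of 4.43 and 22 positive members, and was also detected in 186 of 991 endothelial cells.

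Among the rest of the 30 were 3 genes of sugar transfer or synthesis. GFUS, which encodes GDP-L-fucose synthase, had a log2 fold change of 4.12 with 38 positive members. B4galnt3b, an N-acetylgalactosaminyltransferase gene, had 4.06 with 37, and both were detected in members of all 4 libraries. Gbgt1l4, of the globoside glycosyltransferase family, had 4.72 with 32 positive members, and its close relative gbgt1l3 may share reads with it. Gstp2, a pi-class glutathione S-transferase gene, stood at 312, 0, 602 and 399 CPM against 4.10, 0.15, 52.8 and 10.4 (3.97 ± 0.32, adjusted p = 9.87e-32). Bdnf, the gene of a neurotrophin that innervated sensory epithelia express in mammals, had a log2 fold change of 3.79 with 29 positive members.

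**Figure D3:**
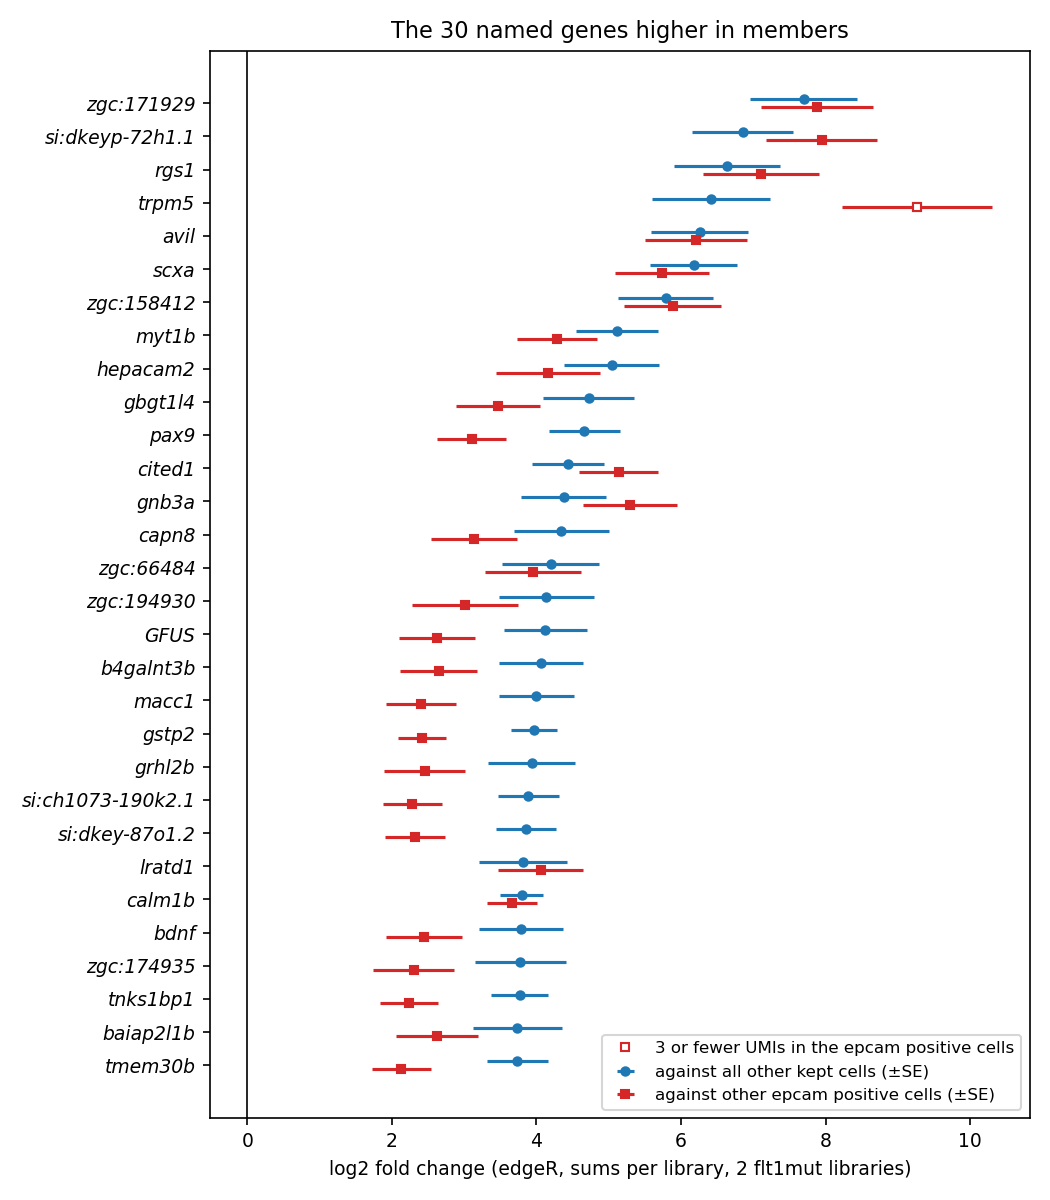
Log2 fold change (± SE, edgeR on sums per library over the 2 flt1mut libraries) of the 30 named genes in members, against all other kept cells (blue circles) and against other epcam-positive cells (red squares). All 30 lie above 0 in both, from 3.73 for tmem30b to 7.70 for zgc:171929 against all other kept cells, and the open square marks trpm5, whose value against epcam-positive cells rests on 1 UMI there and does not measure the size of the difference.

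Genes with a UMI in at least 20 members were ranked by how far they were confined to members. The measure was the share of all kept cells with a UMI that were members, and pou2f3 was not used in it. For pou2f3 itself this share was 42.6% (52 of 122 cells), and it was set by the rule. The gene zgc:171929 had the highest share at 67.6% (23 of 34), followed by trpm5 at 56.8% (21 of 37) and si:dkeyp-72h1.1 at 47.2% (25 of 53). Rgs1 reached 38.9%, avil 36.8%, gbgt1l3 32.8%, zgc:194930 32.1%, gbgt1l4 29.1%, scxa 27.3% and capn8, a calpain protease gene, 26.7%. Of the other positive genes, bik reached 25.8%, gng13a 23.2%, cldnh 21.3%, calb2a 16.4% and mmp30 11.4%. This ranking pooled libraries in which members had different shares. Within flt1mut replicate 1 the shares were 41.5% for pou2f3, 70.4% for zgc:171929, 59.4% for trpm5, 55.3% for si:dkeyp-72h1.1, 50% for avil, 42.9% for scxa and 39.6% for rgs1, so the first 3 kept their order. All 21 members with gbgt1l3 were from that library.

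The label of epithelial cells was checked against markers that the rule did not use. Epcam was detected in 62 of 66 members and stood at 2715, 2603, 3854 and 3220 CPM, against 232, 80.2, 870 and 474 CPM in other kept cells. Members of all 4 libraries lay above the other cells (2.12 ± 0.14, adjusted p = 7.57e-45). In flt1mut replicate 1 an epcam UMI was also present in 30.1% of endothelial cells and 28.6% of erythrocytes. Some members of that library held little or no epcam. For example, 1 held 2 epcam UMIs and 15 of the blood progenitor gene myb, and 1 held 0 epcam UMIs and 11 of the thymocyte gene ccr9a. In WT replicate 1, 1 member with 573 UMIs in all held no epcam UMI. The epithelial label was thus not borne out in every member. Of 16 general epithelial genes 15 were tested, 12 were higher in members, 1 was lower and the median log2 fold change was 1.77. Over all genes tested, 3.41% were higher and 4.81% lower. The 12 included cdh1 (E-cadherin, 1.77), cldn7b (2.50), esrp1 (an epithelial splicing regulator, 2.70) and cldnb (2.76), and the lower gene was the keratin gene krt8 (-0.69, adjusted p = 0.0203). With DESeq2 8 of the 12 passed and krt8 did not. Against other epcam-positive cells 2 of 14 were higher, cldnb (1.04, adjusted p = 6.52e-08) and cldn7b (0.81, adjusted p = 0.0378), beside 1.6% of all genes tested.

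A gene detected in every member was icn, which encodes ictacalcin, an S100-type calcium binder of skin and other epithelia. It was found in 66 of 66 members at 12591, 30306, 13747 and 15661 CPM, against 566, 490, 1785 and 991 CPM in other kept cells. Members of all 4 libraries lay far above the other cells (3.13 ± 0.10, adjusted p = 4.25e-211), and icn was also higher than in other epcam-positive cells (1.62, adjusted p = 1.83e-45). Since an icn UMI was also found in 64.7% of erythrocytes and in 13.7% of them after thinning to 1000 UMIs, against 84.6% of thinned members, the presence of icn alone did not set the members apart at full depth. In the 113 cells just outside the rule icn was detected in 105 (92.9%), at a pooled 13694 CPM against 14229 CPM in members. After thinning to 1000 UMIs, 64.2% of those cells held it. A high icn level was thus not particular to the members.

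Lists of epidermal genes did not place the members in 1 known layer. The shares over all genes tested were 3.41% higher and 4.81% lower against all other kept cells. Against other epcam-positive cells they were 1.6% and 1.99%. Of 11 periderm genes 5 were higher in members (krt4, agr1, icn, cyt1 and krt5; median 1.42), 3 of them also with DESeq2, but against other epcam-positive cells 2 of 10 were higher (icn and krt5) and krt92 was lower. Of 7 basal epidermis genes tested 4 were higher (cldni, itga6b, col17a1b and krtt1c19e; median 1.35), 2 of them also with DESeq2. Against other epcam-positive cells 2 of 7 were higher, col17a1b (2.26, adjusted p = 0.000897) and krtt1c19e (2.32, adjusted p = 0.00941). Tp63 itself was detected in 31 members, stood at 218, 46.5, 226 and 10.5 CPM against 17.4, 14.8, 94.2 and 51.5, and did not pass (0.30, adjusted p = 0.804). Against other epcam-positive cells tp63 was lower (-1.29, adjusted p = 0.0310), with members of flt1mut replicate 2 holding it in 1 of 5 cells.

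The chemosensory list was only partly present. Of 18 genes 15 were in the files and 9 of these had a UMI in a member. Of 10 tested, 3 were higher (trpm5, avil and gng13b), none was lower (1 lower at an unadjusted p under 0.05, and 0 lower with DESeq2), and the median log2 fold change was -0.03. The shares over all genes tested were 3.41% higher and 4.81% lower. Gng13b, the sister gene of gng13a, was detected in 4 members, all from flt1mut replicate 1 (2.67 ± 0.67, adjusted p = 0.00166), and did not pass with DESeq2 (adjusted p = 0.727). Itpr3 was detected in 27 members but stood at 172, 0, 66.5 and 10.5 CPM against 9.16, 23.8, 16.8 and 21.2, and did not pass (1.11 ± 0.58, adjusted p = 0.298). Of the listed genes, 6 had no UMI in any member, namely chata, which makes acetylcholine, alox5a of leukotriene synthesis, the transcription factor genes hmx2 and gfi1b, and the taste receptor genes tas1r1 and tas1r3. The members were therefore described by their genes and given no cell type name.

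Gene families were counted in the same way, beside shares of 3.41% higher and 4.81% lower over all genes tested. Of 18 keratin genes tested 6 were higher (krt4, krtt1c19e, cyt1, krt91, krt5 and krt18a.1) and 2 lower (krt18b and krt8). DESeq2 passed 2 keratin genes as higher and 1 as lower. Of 14 other G protein beta and gamma genes tested, gng13b and gnb3a were higher and gngt2b was lower. Only gnb3a of these passed with DESeq2. Of 20 other EF-hand calcium binders, 5 were higher, namely icn, calm1b, s100u (2.13, 52 members), s100v2 (1.71, 42 members) and pvalb5, whose increase came from 3 cells of flt1mut replicate 1. Of 20 other claudins 5 were higher (cldni, cldnk, cldnb, cldn23a and cldn7b) and 4 lower, among them cldn5a and cldn5b, which belong to endothelial and neural barriers. No gene of the BCL2 family (18 tested), the other POU domain genes (7) or eicosanoid synthesis (13) passed in either direction in edgeR or in DESeq2. At an unadjusted p under 0.05 in edgeR these families held 2, 2 and 3 genes. At the shares over all genes, families of this size would hold few or no genes that pass. The lack of such genes is therefore not a result about these families. Of 10 other matrix metalloproteinase and inhibitor entries 1 passed, a copy of the collagenase gene mmp13a (ENSDARG00000114451, 2.75, 20 members), while the second copy under the same symbol did not (0.39, adjusted p = 0.769).

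Markers of further sensory and secretory cells gave a mixed picture, beside 3.41% higher and 4.81% lower over all genes tested. Of hair and Merkel cell genes 1 of 5 tested was higher, the progenitor factor gene sox2 (31 members, 1.90, adjusted p = 0.00273), and atoh1a was at 0 in members. Against other epcam-positive cells 2 genes of this list were tested and none was higher. In the 113 cells just outside the rule sox2 was detected in 40.7% at a pooled 176 CPM, against 47.0% and 142 CPM in members. The sox2 share was 63.0%, 41.2% and 31.8% of members with 3, 4 and 5 or 6 positive genes. Ionocyte genes foxi1 and ceacam1 passed on 4 cells each, and the neuroendocrine genes chga and scg2b on 3 cells each, all in flt1mut replicate 1, and DESeq2 gave no adjusted p for these 4 genes. Agr2, a mucous cell gene for a protein disulfide isomerase, was detected in 18 members at 1076.5, 46.5, 711 and 0 CPM against 11.7, 34.6, 40.8 and 5.89 (3.19 ± 0.42, adjusted p = 6.09e-12). It was at 0 in all 5 members of flt1mut replicate 2 and did not pass with DESeq2 (adjusted p = 0.378). Agr2 was also higher against other epcam-positive cells in edgeR. The 113 cells just outside the rule held it in 36.3% at a pooled 604 CPM, against 27.3% and 650 CPM in members. Neither sox2 nor agr2 was thus particular to the members. Of 3 intestinal genes and 1 olfactory neuron gene tested none passed in edgeR or DESeq2, and none had an unadjusted p under 0.05. These lists were too short for that to be a result about them.

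The pharyngeal and thymic list had 9 tested genes, of which pax9 and eya1 were higher and the Notch ligand gene dll4 lower. Over all genes tested, 3.41% were higher and 4.81% lower. Eya1, a cofactor of placode and pharyngeal development, stood at 156, 0, 80.5 and 83.9 CPM in members against 13.6, 9.47, 10.4 and 13.1 (2.55 ± 0.55, adjusted p = 0.000110). The thymic chemokine gene ccl25a was detected in 2 members and was lower than in other epcam-positive cells (-3.29, adjusted p = 0.000746), and the thymic epithelial regulator gene foxn1 was at 0.

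Cell cycle genes gave no common direction. Over all genes tested, the shares beside the counts given here were 3.41% higher and 4.81% lower. Of 12 tested, mki67 was higher (1.29, adjusted p = 1.66e-05) and the replication licensing gene mcm2 lower (-2.03, adjusted p = 0.0152). Mki67 stood at 78.0, 604, 395 and 997 CPM against 169, 142, 233 and 172, with WT replicate 1 the opposite way, and it did not pass over all 4 libraries (adjusted p = 0.375 in edgeR). Neither gene passed with DESeq2 (adjusted p = 0.258 and 0.141). Of 17 stress genes 3 were higher (egr1, ier2b and hsp90aa1.2) and 6 lower, among them hsp70l (-3.93, adjusted p = 6.69e-12). With DESeq2 none of the 3 higher and 2 of the lower genes passed.

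Transcripts of other cell types were measured in the same sums, since doublets were not removed. Over all genes tested, 4.81% were lower in members. The 10 endothelial markers summed to 0 to 62.4 CPM in members against 602 to 1016 in other kept cells, with 8 of the 10 held low by the rule. The 8 erythrocyte genes were all lower in the fit, and summed to 14260, 0, 399 and 21.0 CPM against 36946, 4743, 33922 and 32042, so the members of WT replicate 1 held many globin transcripts. Of 9 leukocyte genes 8 were lower, with sums of 374, 0, 102 and 126 CPM against 4683, 2099, 2928 and 3862. The myeloid genes mpx and mpeg1.1 were at 0 in members.

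Beside 4.81% lower over all genes tested, 4 of 8 lymphoid genes were lower (il2rb, ccr9a, runx3 and ikzf1), 0 of them with DESeq2. The median of the 8 lymphoid genes was -1.87, and 6 were lower at an unadjusted p under 0.05. Their summed level was 187, 186, 178 and 766 CPM in members against 714, 1046, 758 and 741 in other kept cells, so the members of flt1mut replicate 2 were not below their other cells. Myb, a transcription factor gene of blood progenitors, was not lower in members. It stood at 31.2, 697, 385 and 514 CPM in members against 261, 320, 310 and 410 in other kept cells (-0.01, adjusted p = 0.997). A myb UMI was present in 43 of 66 members (65.2%), in 33.9% of other epcam-positive cells, in 4.84% of endothelial cells and in 4.89% of erythrocytes. The myb share was 40.7%, 64.7% and 95.5% of members with 3, 4 and 5 or 6 positive genes. After thinning to 1000 UMIs it was 7.69%, 23.5% and 40.9%. Of cells with at most 2 endothelial genes, 43.4% with 2 positive genes and 53.9% with 0 held myb (11.9% and 21.2% thinned). Ccr9a, a chemokine receptor gene of thymocytes, was present in 13.6% of members and 27.5% of other epcam-positive cells. Its share was 22.2%, 5.88% and 9.09% of members with 3, 4 and 5 or 6 positive genes. The part of doublets in the myb signal was not tested.

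Kdrl, the Vegf receptor gene whose regulatory sequence drove the sorted reporter, was not in the rule, but the rule's limit on endothelial genes favours cells low in kdrl. No kdrl UMI was found in any of the 66 members, which allows a share of cells with a UMI, not of cells expressing the gene, of up to 4.55%, while 857 of 991 endothelial cells and 5 of 184 erythrocytes (2.72%) held 1 or more. Kdrl stood at 161, 162, 101 and 143 CPM in all other kept cells and at 1300, 964, 911 and 972 CPM in endothelial cells. Set against a floor of 3 UMIs per library, the level in members was at least 3.43-fold, 1.16-fold, 26.4-fold and 4.53-fold lower than in the other kept cells and at least 27.8-fold, 6.91-fold, 238-fold and 30.9-fold lower than in endothelial cells. In the other epcam-positive cells kdrl stood at 10.4, 5.11, 4.01 and 8.79 CPM in the same order of libraries. The floors in members were 46.8, 139, 3.83 and 31.5 CPM, so a decrease against those cells was not shown. The decrease against all other kept cells passed in edgeR at an adjusted p of 5.35e-16 but not in DESeq2 over the same 2 libraries (adjusted p = 0.437). With all members at 0 the fitted fold change depends on the prior count and does not measure the size of the decrease, so it is not given. The GFP transcript is not among the genes analysed here, so reporter expression in the members was not measured.

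Flt1, the mutated gene, also had no UMI in the 66 members. In flt1mut replicate 1 its level was at least 7.81-fold lower than the 29.9 CPM of the other kept cells (edgeR adjusted p = 6.38e-05 over the 2 flt1mut libraries), and in the other 3 libraries the other kept cells were themselves under the floor. Kdr, flt4 and nrp1b were at 0 in members, and nrp1a and nrp2a were each detected in 9. Over all genes tested, 3.41% were higher and 4.81% lower. Of 8 Vegf receptor genes tested none was higher, either at an unadjusted p under 0.05 or with DESeq2, and 3 were lower in edgeR (kdrl, flt1 and flt4), of which flt1 also passed with DESeq2 (adjusted p = 0.0199). The rule's limit on endothelial genes favoured these decreases, since the other kept cells included 991 endothelial cells. Against other epcam-positive cells 3 of the 8 genes were tested, and none was higher or lower.

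The study compared flt1mut with WT, and the members' share of kept cells was set side by side for the 4 libraries. It was 0.543% in WT replicate 1 (4 of 737, exact 95% interval 0.148 to 1.38%), 0.0915% in WT replicate 2 (1 of 1093, 0.00232 to 0.509%), 2.71% in flt1mut replicate 1 (56 of 2065, 2.05 to 3.51%) and 0.386% in flt1mut replicate 2 (5 of 1296, 0.125 to 0.898%). Flt1mut replicate 1 lay above the other 3 libraries, and flt1mut replicate 2 lay between the WT libraries, so the groups overlapped. The mean shares were 0.317% in WT and 1.55% in flt1mut, a difference of 1.23 percentage points that did not pass an exact permutation test (two-sided p = 0.667, where 0.333 is the smallest this design can give). Without flt1mut replicate 1 the difference was 0.0687 percentage points. The intervals cover counting error only.

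The share of kept cells with an epcam UMI varied in the same libraries. Cells with an epcam UMI and at most 2 endothelial genes made up 26.9%, 5.95%, 40.2% and 19.1% of the kept cells of WT replicate 1, WT replicate 2, flt1mut replicate 1 and flt1mut replicate 2. In the same order, an epcam UMI was present in 23.0%, 1.48%, 30.1% and 6.88% of endothelial cells. In erythrocytes it was present in 11.8%, 0%, 28.6% and 6.67%. The epcam-positive cells were thus not all shown to be epithelial. Among these epcam-positive cells, members made up 1.52% (3 of 198), 1.54% (1 of 65), 6.38% (53 of 831, 4.81 to 8.26%) and 2.02% (5 of 247, 0.660 to 4.66%). Flt1mut replicate 1 was again the highest, and the other 3 libraries lay close together. With at least 4 positive genes the members numbered 0, 0, 36 and 3. Genotype, the composition passed by the gate, the background of epcam and that of the rule's genes in flt1mut replicate 1 cannot be told apart in these counts. With 1 member in WT replicate 2, under the 3 required, no test of gene levels between genotypes was run.

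**Figure D4:**
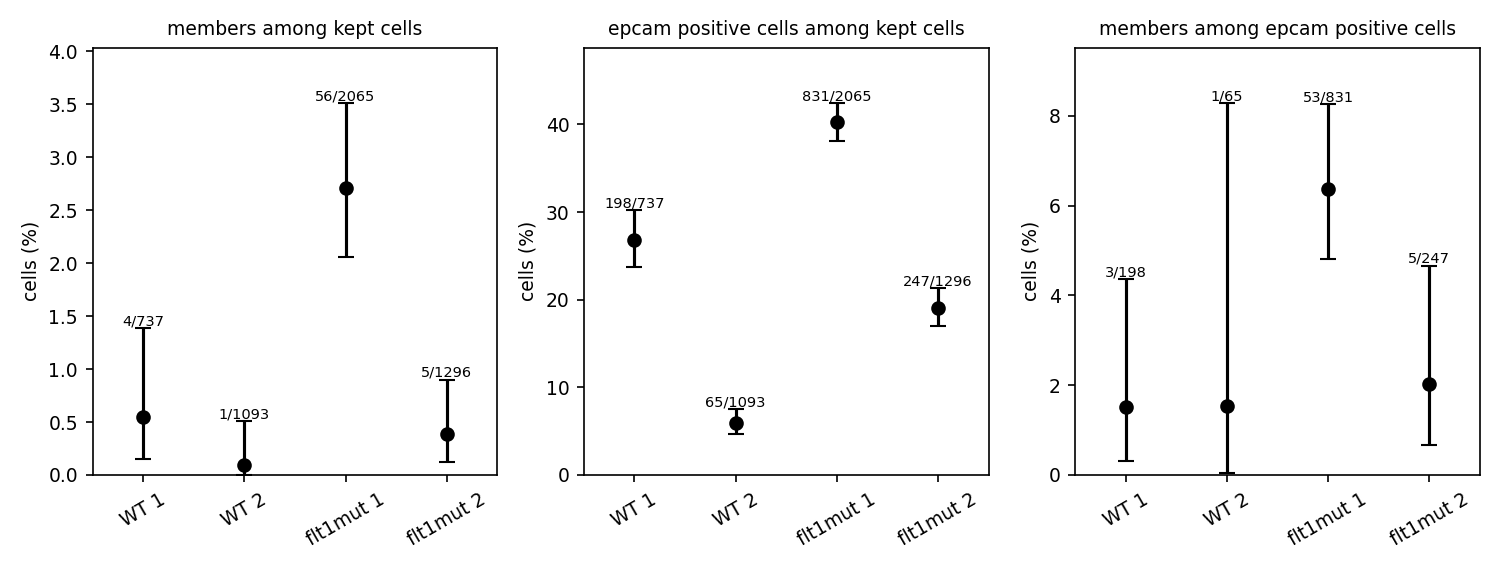
Percent of kept cells that were members (left), percent of kept cells that were epcam-positive (middle) and percent of epcam-positive cells that were members (right) in the 4 libraries, with exact 95% binomial intervals and the counts above each. Flt1mut replicate 1 was highest in all 3 panels, at 2.71%, 40.2% and 6.38%.

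The members did not form a cluster of their own. The kept cells of all 4 libraries were clustered with the 14 genes of the rule left out of the variable genes, which gave 21 clusters, 10 of them with members. Cluster 12 held 32 of the 66 members (48.5%, exact 95% interval 36.0 to 61.1%), but members were 17.6% of its 182 cells. Cluster 14 held 13 members among 136 cells and cluster 3 held 9 among 381. Of the 22 members with 5 or 6 positive genes 17 were in cluster 12, against 8 of the 27 with 3 positive genes, and of the 19 calb2a-rich members 16 were there. The members in cluster 12 were 1 from WT replicate 1, 28 from flt1mut replicate 1 and 3 from flt1mut replicate 2.

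The members were also compared with the cells most like a neighbouring epithelium, 41 kept cells that held tp63 and ccl25a (6, 3, 23 and 9 in WT replicate 1, WT replicate 2, flt1mut replicate 1 and flt1mut replicate 2). Over the 2 flt1mut libraries 62 of 2638 genes were higher in members (2.35%) and 127 lower (4.81%) in edgeR at an adjusted p under 0.05. This comparison was fragile. Over all 4 libraries 0 of 870 genes passed, with 226 at an unadjusted p under 0.05, leaving out single libraries gave 0 to 19 (0 without flt1mut replicate 1 or without flt1mut replicate 2, where 131 and 110 genes had an unadjusted p under 0.05), and DESeq2 passed 70 genes over the 2 flt1mut libraries. With members restricted to 4 or more positive genes 0 genes passed in edgeR, with 445 at an unadjusted p under 0.05.

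Within that limit, several genes were present in members and at 0 in the 41 cells. Gnb3a was detected in 23 of 66 members and in 0 of 41 cells, at least 16.3-fold higher in flt1mut replicate 1 and 3.08-fold in flt1mut replicate 2 against a floor of 3 UMIs per library. In the same order of libraries gbgt1l4 (32 members) was at least 12.2-fold and 3.08-fold higher, myt1b (28) 9.50-fold and 9.23-fold, si:dkeyp-72h1.1 (25) 8.14-fold and 6.15-fold, prox1a (21) 6.79-fold and 6.15-fold, and zgc:158412 (25) 6.91-fold and 6.15-fold. Prox1a encodes a homeobox factor of lymphatic and sensory cells, and was also detected in 148 endothelial cells. Myb was detected in 43 members and 3 of the 41 cells. The adjusted p of myb and of the genes at 0 in the 41 cells lay between 0.00173 and 0.0191. Both lymphoid genes tested here were higher in members, runx3 (21 members and 3 of the 41 cells, edgeR adjusted p = 0.0184) and ccr9a (9 members and 4 of the 41 cells). Tmod4, detected in 179 of 184 erythrocytes, was also higher (25 members and 2 of the 41 cells, edgeR adjusted p = 0.0283).

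Other genes were found mainly in the 41 cells. The chemokine gene cxcl8a was detected in 3 of 66 members and 17 of 41 cells, with summed levels of 7.27 and 360 CPM (adjusted p = 0.00125). The ammonium transporter gene rhbg was detected in 12 members and 35 of the 41 cells, at 74.7 and 855 CPM (adjusted p = 0.00752). Cyp26a1, which breaks down retinoic acid, was detected in 3 members and 18 cells, at 11.4 and 169 CPM (adjusted p = 0.00752). The tandem genes ms4a17a.1, ms4a17a.5 and ms4a17a.7 were also lower in members, and as close copies they may share reads.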

How the data were processed

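The authors deposited Cell Ranger matrices of raw UMI counts per gene and cell, aligned to GRCz11, for 4 libraries (Cell Ranger 6.1.1 per the file headers). The labels and the study's methods name different versions of the 3' chemistry. The matrices held 25432 genes, and 0 columns belonged to samples outside the series. The members and the gene lists were chosen with earlier results of these data known. Kept cells followed the study's filter. Endothelial cells held at least 5 of the 8 endothelial genes, and erythrocytes held at least 30% globin UMIs. Doublets were not called or removed.

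UMI counts were summed per library and cell set and tested with edgeR 4.0.16 (TMM, filterByExpr, quasi-likelihood F-test, library as a block, Benjamini-Hochberg adjustment over all genes tested; R 4.3.3), after the code was tested on simulated data. DESeq2 1.42.0 was an alternative. Log2 fold changes come from edgeR. CPM are summed counts over summed totals. Clustering used Seurat 5.3.0 with the study's settings, and shares used scipy 1.17.1 (Clopper-Pearson intervals). For equal depth, each cell was thinned to 1000 UMIs. Named genes were the 14 genes of the rule and the 30 largest increases in at least 25% of members that were higher in both libraries. Also named were the 15 largest increases and 10 largest decreases against tp63 and ccl25a positive cells. The 10 genes most confined to members and the genes of the lists were added to these.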

Additional observations from a re-analysis of the deposited data

How the results depend on the processing

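Members against all other kept cells gave 1110 genes in edgeR. The count was 361 with DESeq2, 612 with at least 1 member per library and at least 4 positive genes, 330 against epcam-positive cells only, and 350 to 1256 when each library was left out in turn with at least 1 member per library. The last 3 alternatives were chosen after seeing the data. The lowest value was without flt1mut replicate 1. No filter on low counts gave 1268, members without any endothelial gene 1039 and at least 1 member per library 1449. A wider cell filter, with a mitochondrial limit of 10% and no upper limit on detected genes, gave 1226. Against tp63 and ccl25a positive cells the count of 189 became 70 with DESeq2, 319 without a filter on low counts, 304 for members without any endothelial gene, 282 with the wider cell filter, 447 against tp63-positive cells alone, 0 with at least 1 cell per library, 0 with 4 or more positive genes as well, and 0 to 19 when each library was left out (11 without WT replicate 2). With 4 or more positive genes and at least 5 members per library 1 library was left, so neither comparison could be fitted, and leaving out 1 of 2 libraries could not be fitted either. The part of members in their main cluster moved from 48.5% to 34.8% at resolution 1 and to 71.2% with 30 principal components, and was 53.0% with the 14 genes kept. The difference in the members' share between genotypes was 0.987 to 1.53 percentage points in settings with all 4 libraries. The exact permutation p there was 0.333 or 0.667, where 0.333 is the smallest possible. All these settings kept flt1mut replicate 1, which held 56 of the 66 members, so their shared sign does not show stability. When each library was left out the difference was 0.0687 to 2.39, lowest without flt1mut replicate 1. The fitted log2 change of kdrl was -7.91 with DESeq2 and lost its call there (adjusted p = 0.437, the cause was not tested). It kept its call under the other alternatives. The change was -5.85 with the wider cell filter, which let in 3 kdrl UMIs in members, and -13.37 to -13.09 when each library was left out. Where members are at 0 these fitted values depend on the prior count and do not measure the size of the decrease. Thinning only removes UMIs, so the 0% of members with kdrl after thinning to 1000 or 2000 UMIs was fixed in advance and is no further check.

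No paired analysis was possible because the comparison of genotypes in members came from no test. It required 3 members in each library and WT replicate 2 had 1, and a fit with fewer members was not run, nor were its alternatives. Depth limits the WT side most, since the 5 WT members held 64094 and 21514 UMIs in all, and 3 UMIs there equal 46.8 and 139 CPM.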

Other observations

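The gene rule was also met by 48 called cells that failed the cell filter, 2 in WT replicate 1, 0 in WT replicate 2, 45 in flt1mut replicate 1 and 1 in flt1mut replicate 2. Of these, 38 had too high a mitochondrial share and 10 had too many genes, and their median depth was 2667.5 UMIs and 1025 genes. Trpm5 was detected in 25 of the 48 (52.1%), avil in 21 (43.8%) and gnb3a in 19 (39.6%), against 21, 28 and 23 of the 66 kept members. The 48 cells met the gene rule at a lower depth, so the rule favoured cells rich in its genes, and these shares are a description. No share is given for failed cells outside the rule. Pou2f3 was detected in 39 (81.3%), cldnh in 47, epcam in 46 (95.8%) and tp63 in 13 (27.1%), while kdrl was detected in 2. Among all called cells, at least 10 calb2a UMIs were found in 1 cell of WT replicate 1 and 29 of flt1mut replicate 1 and in none of the other libraries.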
